A study of Mus musculus with 2 samples.

Results

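Accessible chromatin was described at 10 genes of the muscle atrophy programme and its FOXO regulators, of 21911 protein-coding genes annotated. The genes were taken by name: the FOXO factors Foxo1, Foxo3, Foxo4 and Foxo6, the F-box genes Fbxo32 and Fbxo30, the muscle RING-finger genes Trim63, Trim55 and Trim54, and Klf15. For each gene, every peak and footprint whose midpoint lay in the gene body or within 10 kb of it was taken from both libraries. The assay was DNase-seq: open chromatin is cut more readily by DNase I than packed chromatin, and sequencing maps where the cuts fell. The tissue was the gastrocnemius, a large calf muscle, of B6Cast F1 female mice aged 2 months with no treatment named in the labels. There were 2 libraries, from separate biosamples labelled biological replicates 1 and 2, and they formed 1 group. The labels give both the same donor identifier, so the spread between them may be technical, and with no second group no difference was tested.

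Muscle loses protein during fasting, disuse and glucocorticoid excess largely through the ubiquitin-proteasome system, in which E3 ligases mark proteins for breakdown. Fbxo32 encodes atrogin-1 and Trim63 encodes MuRF1, the ligases best known for rising in wasting muscle. When insulin and IGF signalling through AKT falls, FOXO factors enter the nucleus and activate these genes, and glucocorticoids act in part through the transcription factor KLF15. The muscles here came from mice for which no such stimulus is named, so the peaks describe these genes without a stated wasting signal.

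All 10 genes had a promoter peak, meaning a peak within 1 kb of an annotated start of the gene, in both libraries, as had 60.2% of all protein-coding genes. Over all genes the share was 60.8% in replicate 1 alone and 71.1% in replicate 2 alone. A footprint, a short stretch protected from cutting inside accessible DNA, lay within 1 kb of a start in both libraries at 10 of 10 genes, against 58.7% of all genes. Footprints of the libraries overlapped each other there at 10 of 10 genes, against 53.9%. The genes were picked as known muscle regulators and their peaks come from the same libraries, so these counts are descriptions of the list.

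The genes also differed in what lay beyond the promoter. Where peaks of the libraries overlapped by at least 1 bp they were merged into a shared peak, and the windows of the 10 genes held 60 of these. By midpoint, 19 of the 60 lay at the gene's own promoter and 4 at the promoter of another gene. The other 37 were distal, with the midpoint over 1 kb from every annotated start. The distal peaks comprised 23 in introns, 9 in upstream flanks, 3 in downstream flanks and 2 in exons. Every gene had a shared peak in its window, as had 71.5% of all genes. At least 1 distal shared peak was present at 8 genes, against 38.3% of all genes, and Foxo4 and Trim54 had none. Foxo3 alone held 17 of the 37, and 20 remained without it.

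The strongest shared peaks of 4 genes, by strength averaged over both libraries, are shown first. They were distal at Foxo3, Fbxo32 and Foxo6 and inside the gene at Klf15. Each is the central 150 bases on GRCm38, the assembly also called mm10, written 5′ to 3′ on the strand of the gene, with capitals marking bases inside a footprint in both libraries. The sequence is that of the reference strain, whereas the F1 mice also carry a CAST allele at each locus. The Foxo3 sequence lies just upstream of the gene, chr10:42277696-42277845, minus strand.
Foxo3 upstream: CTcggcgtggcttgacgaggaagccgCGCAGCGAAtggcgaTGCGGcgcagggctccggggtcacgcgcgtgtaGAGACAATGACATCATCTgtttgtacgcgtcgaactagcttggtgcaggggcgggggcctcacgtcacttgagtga
The Fbxo32 sequence lies in intron 4, chr15:58204171-58204320, minus strand.
Fbxo32 intron: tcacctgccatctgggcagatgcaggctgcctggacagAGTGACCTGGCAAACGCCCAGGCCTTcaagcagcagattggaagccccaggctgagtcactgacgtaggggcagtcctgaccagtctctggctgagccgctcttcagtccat
The Foxo6 sequence lies in intron 1, chr4:120277711-120277860, minus strand.
Foxo6 intron: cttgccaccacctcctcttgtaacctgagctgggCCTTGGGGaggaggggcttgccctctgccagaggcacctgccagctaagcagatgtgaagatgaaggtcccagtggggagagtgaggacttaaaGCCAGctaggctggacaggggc
The Klf15 sequence lies in intron 1, chr6:90463541-90463690, plus strand.
Klf15 intron: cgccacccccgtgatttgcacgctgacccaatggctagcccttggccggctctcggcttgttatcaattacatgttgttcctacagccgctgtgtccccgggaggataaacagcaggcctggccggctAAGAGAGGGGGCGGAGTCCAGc
Footprints common to both libraries covered 34 of the 150 bases at Foxo3, 26 at Fbxo32, 21 at Klf15 and 13 at Foxo6. At Fbxo32 the protected bases formed 1 run, whereas at Foxo3 they fell into separate runs.

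The libraries differed widely in how many peaks they held, which bears on every count below. Replicate 1 had 66984 peaks and replicate 2 had 258342, a ratio of 3.86, and 76.8% and 20.2% of them overlapped a peak of the other library. The sequencing depth is unknown, so the part of depth in this ratio was not tested. All 9 muscle fibre markers had a promoter peak in both libraries. Of the other markers, 5 of 6 endothelial, 5 of 5 fibroblast, 3 of 4 mural, 2 of 4 Schwann and 1 of 5 macrophage genes did. No satellite cell, adipocyte, liver or heart marker of 3 in each list did. In replicate 2 alone, 3 of 3 satellite cell and 4 of 5 macrophage genes had one, against 0 and 1 in replicate 1. Replicate 2 also had a promoter peak at 1 adipocyte, 1 liver and 1 heart gene of 3 each, against 0 in replicate 1. The marker counts thus depend on the library, and the cause of this was not tested. In any bulk tissue, fewer cells of a type and less accessibility per cell cannot be told apart.

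In the windows of the 10 genes, replicate 1 had 81 peaks and replicate 2 had 350, a ratio of 4.32. The median of the ratios of the 10 genes was lower, at 2.58, so the pooled ratio is not that of a typical member. Of the peaks, 66 in each library overlapped a peak of the other, which is 81.5% in replicate 1 (exact 95% interval 71.3 to 89.2) and 18.9% in replicate 2 (14.9 to 23.4). The intervals cover counting error only and treat peaks as independent. Some peaks of replicate 1 overlap each other, so the same bases can be counted more than once. At Foxo1 and Foxo3, a peak of replicate 1 counted as without a partner lay inside a shared peak. The ratio was widest at Foxo1, with 9 peaks in replicate 1 and 71 in replicate 2, and at Foxo3, with 24 and 172. Trim63 followed with 6 and 33. Trim54 went the other way, with 8 peaks in replicate 1 and 2 in replicate 2, and Fbxo30 was nearly even with 6 and 7.

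**Figure D1:**
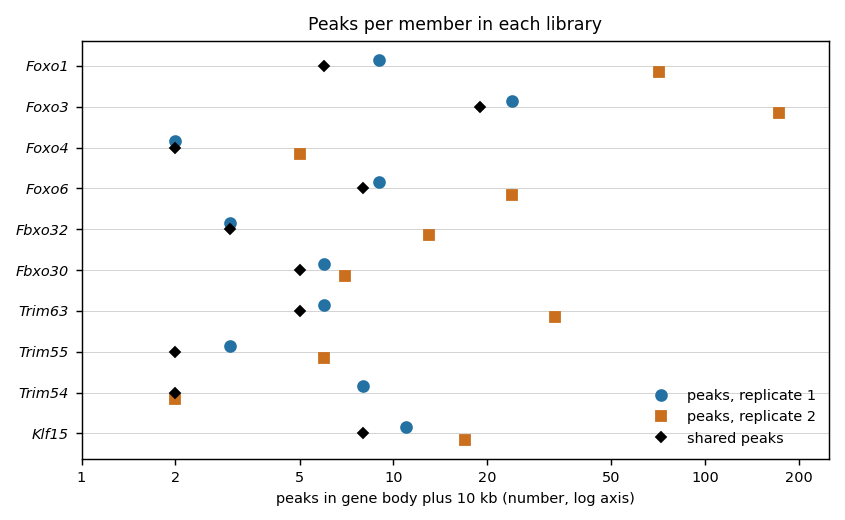
Number of peaks in the gene body plus 10 kb for each gene (log axis), with circles for replicate 1, squares for replicate 2 and diamonds for shared peaks. Foxo3 has the most shared peaks, 19, and Trim54 is the gene with more peaks in replicate 1 than in replicate 2, 8 against 2.

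The deposited signal has no stated scale, so strength is given as a place: the percentage of the 49160 shared peaks that had a stronger signal in the same library. A low place is a strong peak. Over the 60 peaks the median place, averaged over both libraries, was 37.7%. The median was 24.1% for the genes' own promoter peaks and 49.9% for distal peaks, beside 32% and 61.5% over all promoter and distal shared peaks. That promoter background holds every shared peak within 1 kb of a start of any annotated gene. It is thus a wider kind of set than own promoter peaks. The mean place was within the strongest 10% for 9 of the 60, against 9.69% of all shared peaks, and within the strongest 50% for 36, against 49%. The place was weaker in replicate 2 for 47 of the 60, against 50.3% of all shared peaks. Peaks of a gene share a locus and are not independent.

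**Figure D2:**
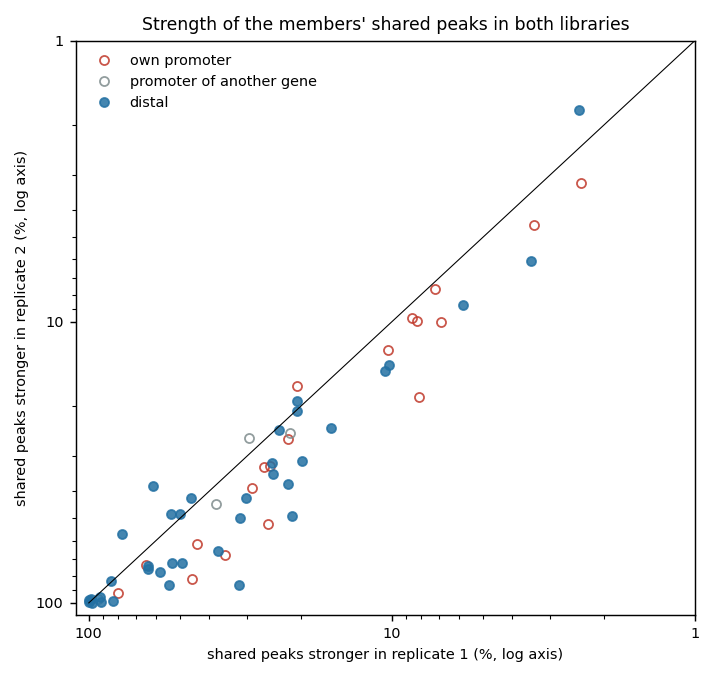
Place of each of the 60 shared peaks in replicate 1 (horizontal) and replicate 2 (vertical), as the percentage of shared peaks that are stronger, on log axes with strong peaks at the upper right. Points below the diagonal are weaker in replicate 2 than in replicate 1, as 47 of the 60 are.

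Ordered by their strongest promoter peak within 1 kb of a start, the genes ran from Klf15 to Trim54. The lead of Klf15 depends on that limit: the peak of Klf15 lay 942 bp from a start and its next was at 8.45% ± 2.24 (SD, n = 2), while a Foxo3 peak at 2.09% ± 0.462, with its midpoint 1016 bp upstream, was not counted. The mean place was 2.79% ± 0.594 (SD, n = 2) at Klf15, 3.96% ± 0.814 at Foxo1, 7.42% ± 0.28 at Foxo6, 9.09% ± 1.18 at Foxo3 and 9.13% ± 0.798 at Fbxo30. It was 11.4% ± 1.64 at Fbxo32, 13.3% ± 7.38 at Trim63, 18.7% ± 2.58 at Foxo4, 29% ± 5.27 at Trim55 and 29.7% ± 4.52 at Trim54. The values of the libraries overlapped between the neighbours Foxo3 and Fbxo30, Fbxo32 and Trim63, Trim63 and Foxo4, and Trim55 and Trim54. The order within each of these pairs is thus not resolved by these ranges. Of these pairs, only Trim55 and Trim54 kept their order, at 25.2% and 26.5% in replicate 1 and 32.7% and 32.9% in replicate 2. Trim63 was the least settled of the 10, at 8.12% in replicate 1 and 18.5% in replicate 2. That range also spans Foxo3, at 8.25% and 9.93%, and Fbxo30, at 8.57% and 9.7%. The place of Trim63 below them is not resolved either.

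**Figure D3:**
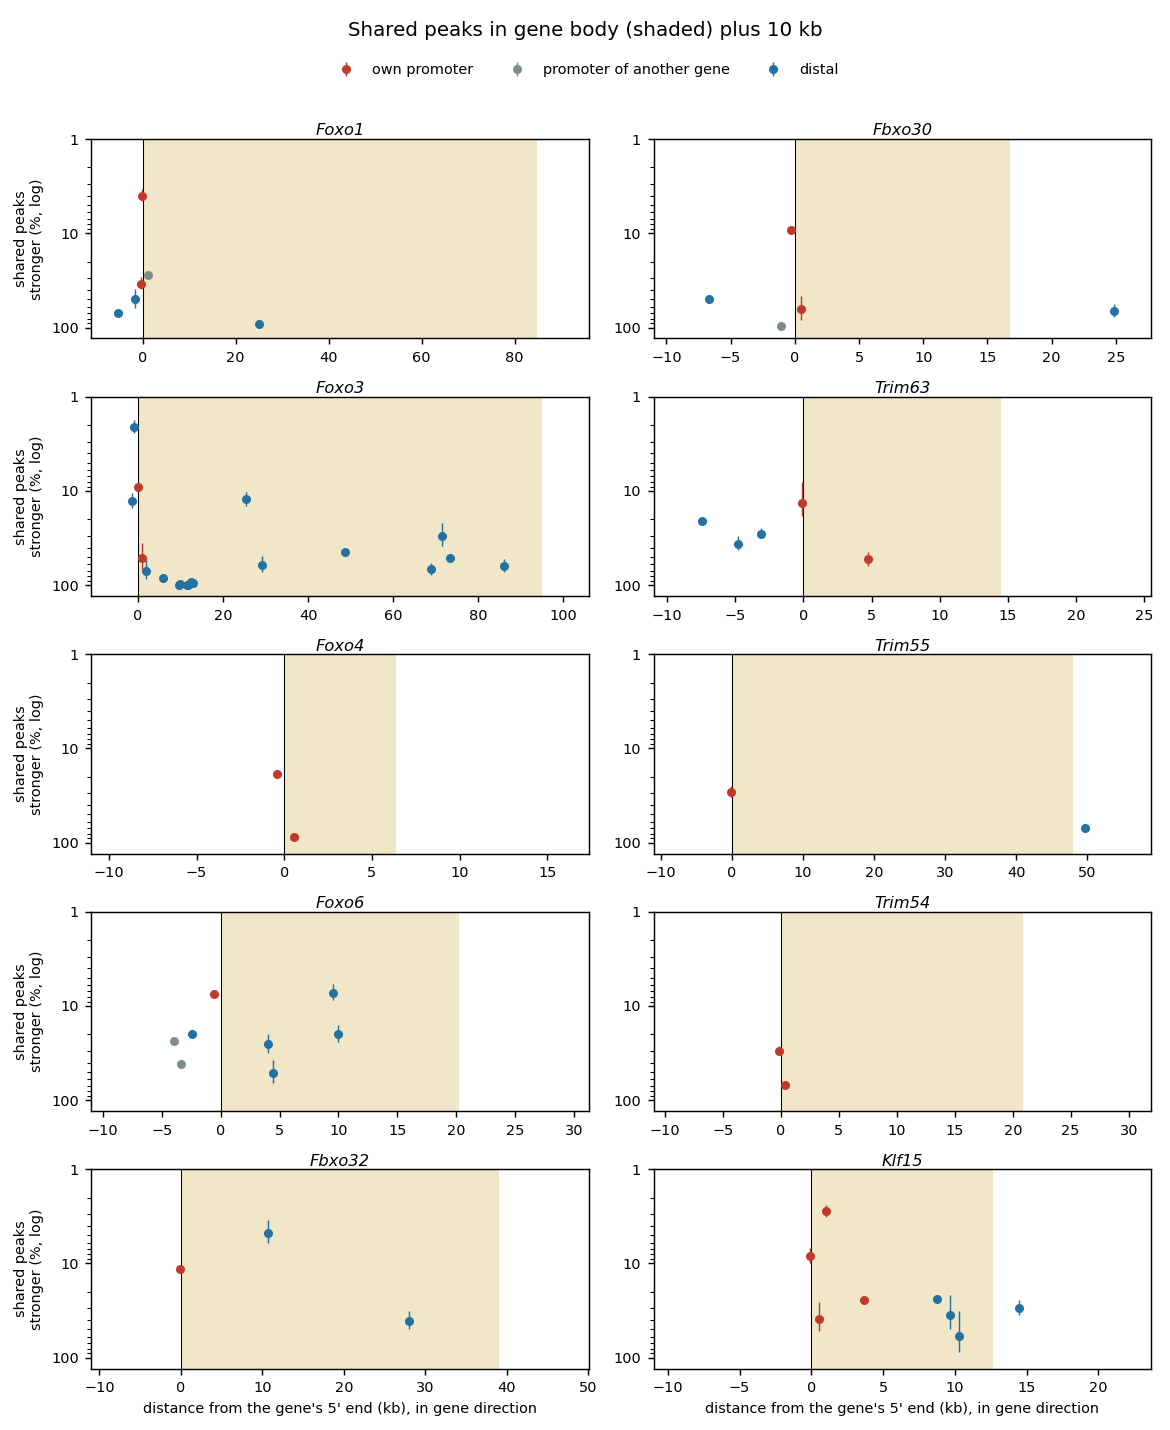
Shared peaks by distance from the 5′ end of each gene in the direction of transcription (kb), with the gene body shaded. The vertical axis is the percentage of shared peaks that are stronger (log axis, strong at the top), points are means of both libraries and bars span the values of the libraries. By mean place, Foxo3, Fbxo32 and Foxo6 have their strongest peak with its midpoint outside the promoter limit. At Foxo6 the order of the distal and promoter peaks differs between the libraries.

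At 3 of the 10 genes, Foxo3, Fbxo32 and Foxo6, the strongest shared peak by mean place had its midpoint over 1 kb from every start of the gene. That held for 24.9% of all genes with a promoter peak in both libraries, so a share of this size is near the background. At Foxo6 the distal and promoter peaks were apart by less than the spread between libraries, at 7.26% ± 2.02 and 7.42% ± 0.28 (SD, n = 2). Their order reversed between the libraries. The distal peak was the stronger in replicate 1, at 5.83% against 7.22%. The promoter peak was the stronger in replicate 2, at 7.62% against 8.68%.

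Foxo1, whose product is a FOXO factor studied in muscle wasting, lies at chr3:52268336-52353221 on the plus strand (ENSMUSG00000044167.6). Its strongest peak, chr3:52268181-52268420, lay 25 bp upstream of the 5′ end and ranked 1675 in replicate 1 and 2254 in replicate 2. Footprints there numbered 7 and 6, and 3 matches to the SP/KLF motif GGGCGGG overlapped footprints of both libraries. Here and below, a match is said to lie in a footprint where they overlap by at least 1 bp. A wide peak in intron 1, 1.2 kb from the 5′ end, lay 101 bp from a start of the antisense gene Gm20402. The 3 distal peaks were weak, at 49.9%, 69.9% and 90.8% mean place. Although replicate 2 listed 71 peaks in this window, only 6 shared peaks were found, and 12.7% of the peaks of replicate 2 overlapped one of replicate 1.

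Foxo3, a FOXO factor able to drive both atrogin-1 and autophagy genes, lies at chr10:42181841-42276755 on the minus strand (ENSMUSG00000048756.11). It had 19 shared peaks in a window of 115 kb, the longest of the 10, and 0.534% of all genes had as many or more. Per 10 kb this was 1.65, and 6.65% of all genes were as dense or denser. The same share by density was 4.33% at Foxo6 and 2.6% at Klf15. The strongest, chr10:42277621-42277900, was at 2.41% in replicate 1 and 1.76% in replicate 2, ranking 1193 and 877. Its midpoint was 1016 bp upstream of the 5′ end, just past the 1 kb limit, so the label of distal rests on that limit. The promoter peak at 11 bp upstream was weaker in both libraries, at 8.25% and 9.93%.

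Within the body of Foxo3, most shared peaks were in intron 2. The strongest there, chr10:42251261-42251580, lay 25.3 kb from the 5′ end at 10.2% and 14.3%, and another 71.5 kb away had a mean place of 30% ± 11.2 (SD, n = 2). A run of 6 peaks between 9.56 and 12.9 kb was among the weakest shared peaks, with no place better than 91.4% in replicate 1 or 95% in replicate 2. The high count at this gene thus includes weak peaks. With only the strongest peaks of each library in equal numbers it had 12 shared peaks, and with the shorter peak list of each library it had 9.

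Foxo4, an X-linked FOXO factor, lies at chrX:101254528-101260873 on the plus strand (ENSMUSG00000042903.8). It had 2 shared peaks, both at the promoter. The stronger lay 402 bp upstream at 20.5% in replicate 1 and 16.9% in replicate 2, which made it the one member whose best promoter peak had the better place in replicate 2. A further promoter peak of replicate 2, 127 bp upstream with a rank of 15324, had no partner in replicate 1.

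Foxo6, the FOXO factor known mainly from the brain, lies at chr4:120267079-120287349 on the minus strand (ENSMUSG00000052135.8). It had 8 shared peaks in 40.3 kb, or 1.99 per 10 kb, against a median of 0.325 over all genes. The pair of intron 1 peaks at 9.56 and 9.96 kb had mean places of 7.26% ± 2.02 and 19.9% ± 5.65 (SD, n = 2). A further 2 of the 8 lay at starts of the antisense gene Foxo6os, upstream of Foxo6. Peaks do not carry strand, so accessibility used by Foxo6 and by Foxo6os cannot be told apart there.

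Fbxo32, which encodes the F-box subunit atrogin-1, lies at chr15:58175879-58214932 on the minus strand (ENSMUSG00000022358.7). It had 3 shared peaks, all of which were ordered alike in both libraries. The intron 4 peak, chr15:58204121-58204360, lay 10.7 kb from the 5′ end at 3.47% in replicate 1 and 6.09% in replicate 2. The promoter peak 139 bp upstream, 596 bp from a start of the antisense gene Gm15943, was at 10.3% and 12.6%, so the intronic peak was the stronger in each library without overlap. The last, 28 kb away in intron 6, had a mean place of 40.8% ± 13 (SD, n = 2). All 3 peaks of replicate 1 were found in replicate 2, which listed 13.

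Fbxo30, which encodes the F-box protein also called MUSA1, is held down by BMP signalling and lies at chr10:11281330-11298052 on the plus strand (ENSMUSG00000047648.13). Its promoter peak, chr10:11280741-11281460, was 720 bp wide and held 13 footprints in replicate 1 and 7 in replicate 2. The midpoint was 23 bp from a start of the divergent non-coding gene 4930432B10Rik, so the promoters of the pair share this peak. A CACGTG match inside it lay in footprints of both libraries. The distal peaks had mean places of 49.1% ± 1.25 and 67.2% ± 14.8 (SD, n = 2).

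Trim63, which encodes the ligase MuRF1, lies at chr4:134315120-134329629 on the plus strand (ENSMUSG00000028834.13). Its main promoter peak, chr4:134314921-134315140, had a signal rank of 4040 in replicate 1 and 9381 in replicate 2. Upstream lay 3 distal peaks, at 7.42, 4.83 and 3.13 kb, with mean places of 20.6% ± 0.147, 36.3% ± 8.62 and 28.4% ± 4.85 (SD, n = 2). The farthest of these differed least between the libraries. With the shorter peak lists the window held 2 shared peaks in place of 5. A further peak in intron 3 was 134 bp from another annotated start of the gene.

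The peak farthest upstream of Trim63 is shown because it held a pair of matches to the E-box CAGCTG, a motif bound by myogenic factors. Just 1 of them overlapped a footprint. Capitals mark the match in each stretch, plus strand of GRCm38. The first is chr4:134307606-134307659 and its match lay in footprints of both libraries.
Trim63 E-box with footprint: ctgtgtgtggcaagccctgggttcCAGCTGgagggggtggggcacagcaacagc
The other is chr4:134307632-134307685 and its match lay in no footprint.
Trim63 E-box without footprint: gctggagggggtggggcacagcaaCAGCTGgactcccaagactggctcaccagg
The stretches overlap, since the matches lie close together.

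Trim55, which encodes MuRF2, a protein of the sarcomere, lies at chr3:19644474-19692421 on the plus strand (ENSMUSG00000060913.6). It had 2 shared peaks in 67.9 kb, or 0.294 per 10 kb. The promoter peak 58 bp upstream was at 25.2% in replicate 1 and 32.7% in replicate 2. The only distal peak, in the downstream flank, was at 69% ± 7 (SD, n = 2).

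Trim54, which encodes MuRF3, a protein that binds microtubules, lies at chr5:31116712-31137630 on the plus strand (ENSMUSG00000062077.14). Both of its shared peaks were at the promoter, with mean places of 29.7% ± 4.52 and 68.8% ± 6.05 (SD, n = 2). The other 6 peaks of replicate 1 were clustered at the far end of the gene, 20.2 to 21.9 kb from the 5′ end, with signals of 0.486 to 0.708. They lay near starts of Gm15469 and Ucn, and replicate 2 listed no peak there. Some of them overlapped, as chr5:31138441-31138580 lay inside chr5:31138321-31138979, so they are not all separate sites. This is why 25% of the peaks of replicate 1 at Trim54 were shared, the lowest share of the 10.

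Klf15, a Krüppel-like factor induced by glucocorticoids that promotes amino acid breakdown, lies at chr6:90462576-90475238 on the plus strand (ENSMUSG00000030087.11). It had 8 shared peaks in 32.7 kb, the highest density of the 10 at 2.45 per 10 kb. The strongest, chr6:90463481-90463800 in intron 1, was at 2.37% in replicate 1 and 3.21% in replicate 2. It lay 1040 bp from the 5′ end and 942 bp from the nearest annotated start, so it counts as promoter by a narrow margin. The peak at the 5′ end itself had a place of 6.86% and 10%. Of the 4 distal peaks, 3 were in intron 3 and 1 in the downstream flank.

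Motifs were searched on both strands in the central 150 bases of every shared peak. The counts below leave out the 4 peaks at promoters of other genes. Of those, a peak near 4930432B10Rik in the Fbxo30 window held an AP-1 match, in a footprint of replicate 2 only. A peak at Foxo6os held a CAGCTG match, in a footprint of replicate 1 only, and the rest held no match. The FOXO motif TGTTTAC was found in 2 of the 37 distal peaks, both at Foxo3, against 1.95% of all distal shared peaks. It was found in 1 of the 19 own promoter peaks, at Foxo4, against 1.2% of shared peaks within 1 kb of any annotated start. That wider set is the promoter background for every motif below. None of the 3 matches lay in a footprint of either library. None was found in the peaks of Fbxo32 or Trim63 in these windows, which says only that these letters are absent there. The distal matches at Foxo3 are shown, with the match in capitals on the minus strand, chr10:42203430-42203484 and then chr10:42251440-42251494.
Foxo3 far intron 2: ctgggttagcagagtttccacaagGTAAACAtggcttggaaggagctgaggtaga
Foxo3 near intron 2: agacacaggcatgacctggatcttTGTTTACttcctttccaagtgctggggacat
The former peak lay 73.3 kb from the 5′ end with a mean place of 51% ± 3.67 (SD, n = 2), and the latter is the strong intron 2 peak at 25.3 kb.

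The glucocorticoid receptor motif, an inverted repeat with a gap, was found in 2 of the 37 distal peaks, both in intron 3 of Klf15, and in no promoter peak. Over all shared peaks it was in 1.15% of distal and 0.293% of promoter peaks. These are shown on the plus strand with the match in capitals, chr6:90471366-90471426 and then chr6:90472230-90472290.
Klf15 near intron 3: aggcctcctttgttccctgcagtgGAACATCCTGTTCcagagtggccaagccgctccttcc
Klf15 far intron 3: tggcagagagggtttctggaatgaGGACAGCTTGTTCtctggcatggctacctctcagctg
The first lay in a footprint of replicate 2 only, in a peak at 23.5% and 24.2%. The other lay in footprints of both libraries, in a peak at 21.4% in replicate 1 and 49.2% in replicate 2. Searched around the peaks of replicate 1 alone, 1 distal peak held the motif. None of the printed FOXO or glucocorticoid receptor matches overlapped a match to another motif searched. With counts of 2, these shares are descriptions.

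The E-box CAGCTG was the commonest motif, in 12 of the 37 distal peaks (32.4%), beside 24.7% of all distal shared peaks, and in 3 of the 19 promoter peaks (15.8%), beside 12.4%. In 300 bases around the midpoint it was in 19 of the 37. The distal matches in 150 bases were spread over Foxo1, Foxo3, Foxo6, Fbxo30, Trim63, Trim55 and Klf15. The AP-1 motif, TGACTCA or TGAGTCA, was in 3 distal peaks, at Foxo3, Foxo6 and Fbxo32, or 8.11% beside 7.63%, and in 1 promoter peak, at Trim54, beside 2.36%. At Fbxo32 the match was in the strong intron 4 peak and lay in a footprint of replicate 2 only. The SP/KLF motif was in 4 of the 19 promoter peaks, at Foxo1, Foxo3, Foxo6 and Klf15, or 21.1% beside 28.7%, and in 1 distal peak, at Foxo3, beside 4.68%. The E-box CACGTG was in 1 distal peak, at Foxo3, beside 4.02%, and in 2 promoter peaks, at Fbxo30 and Klf15, beside 6.18%. At the Klf15 start its match lay in footprints of both libraries. The CTCF motif was in 2 promoter peaks, at Foxo4 and Foxo6, beside 3.64%, and in no distal peak, beside 4.42%. The CTCF match at Foxo6 overlapped an SP/KLF match. No shared peak of the 10 genes held the MEF2 motif, found in 0.944% of all distal and 0.394% of all promoter shared peaks. None held the MEF3 motif, found in 0.835% and 0.398%, or the NRF1 motif, found in 0.0988% and 0.993%.

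Promoter composition separated the MuRF family from the other members. The observed over expected CpG ratio within 500 bp of the 5′ end was 0.272 at Trim63, 0.265 at Trim54 and 0.149 at Trim55, all under the median of 0.552 over all genes. The other 7 genes lay above it, from 0.721 at Fbxo32 to 1.06 at Foxo1. Among the 10, the CpG-poor genes included the pair with the weakest promoter peaks, Trim55 and Trim54, while Trim63 overlapped Fbxo32 in strength. This is a description over 10 chosen genes in the same libraries.

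**Figure D4:**
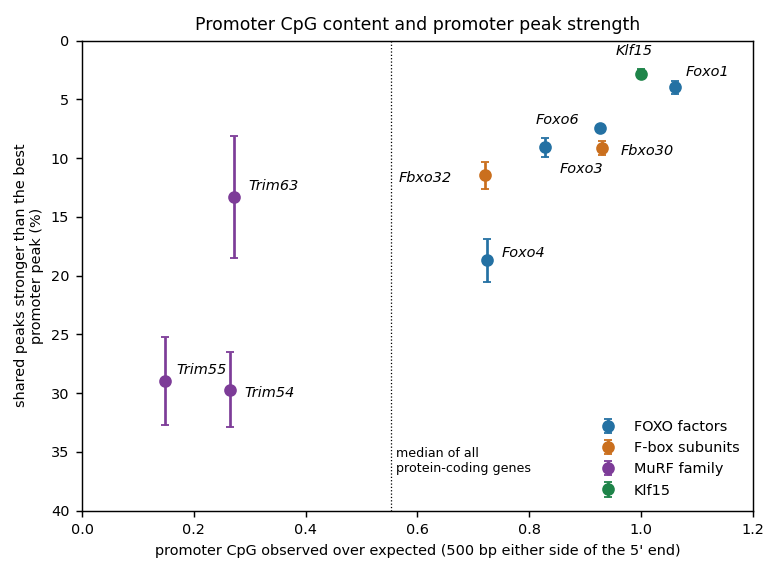
Promoter CpG observed over expected (horizontal) against the place of the strongest promoter peak (vertical, strong at the top), with points as means and bars spanning the values of both libraries. The MuRF genes lie left of the dotted median of all genes, 0.552, and the other 7 lie right of it.

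The contrast is visible in the bases themselves. Promoter sequences from RefSeq (GRCm38.p6) were found for 6 of the 10 genes, Foxo1, Foxo3, Fbxo30, Trim63, Trim54 and Klf15. Of these, 5 are shown as the 130 bases before the start on the strand of the gene, with CG dinucleotides in capitals. They are chr3:52268206-52268335 (plus), chr10:42276756-42276885 (minus), chr6:90462446-90462575 (plus), chr4:134314990-134315119 (plus) and chr5:31116482-31116611 (plus).
Foxo1 promoter: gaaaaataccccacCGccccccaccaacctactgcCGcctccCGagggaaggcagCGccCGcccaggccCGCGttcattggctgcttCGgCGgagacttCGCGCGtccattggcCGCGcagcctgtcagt
Foxo3 promoter: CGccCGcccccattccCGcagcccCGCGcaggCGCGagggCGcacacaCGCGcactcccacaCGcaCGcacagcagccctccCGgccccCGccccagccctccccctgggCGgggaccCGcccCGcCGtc
Klf15 promoter: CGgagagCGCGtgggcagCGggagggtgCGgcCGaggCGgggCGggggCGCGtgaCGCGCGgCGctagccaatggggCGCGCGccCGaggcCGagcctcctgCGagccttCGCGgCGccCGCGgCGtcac
Trim63 promoter: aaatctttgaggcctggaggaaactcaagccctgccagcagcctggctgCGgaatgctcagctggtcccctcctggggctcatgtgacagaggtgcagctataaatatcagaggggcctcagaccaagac
Trim54 promoter: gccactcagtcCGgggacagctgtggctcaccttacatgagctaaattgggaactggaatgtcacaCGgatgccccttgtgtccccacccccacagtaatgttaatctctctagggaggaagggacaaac
The stretches held 14, 18 and 26 CG dinucleotides at Foxo1, Foxo3 and Klf15, against 1 at Trim63 and 2 at Trim54.

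The deposited cut-rate segments gave a separate measure of the promoters, as bases within 1 kb of the 5′ end covered by a segment. All deposited segments were counted and taken to have a false discovery rate of at most 0.05, with no further filter. The median over the 10 genes was 982.5 bases in replicate 1 and 1268 in replicate 2, beside 304 and 548 over all genes. Foxo3 had the most, 2001 and 1856, followed by Foxo1 with 1808 and 1744 and Fbxo30 with 1617 and 1673. Trim63 had the fewest in replicate 1, 371 against 1017 in replicate 2, and Trim55 had the fewest in replicate 2, 484 against 516 in replicate 1. Trim63 differed between libraries in this measure as it did in place, but in the opposite direction.

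Of 50 other genes of the AKT, FOXO, glucocorticoid, myostatin, autophagy and ubiquitin pathways, 49 had a promoter peak in both libraries, beside 60.2% of all genes. The exception was Mstn, which encodes the muscle growth inhibitor myostatin and had a promoter peak in replicate 2 only. A distal shared peak was found at 36 of the 50, beside 38.3% of all genes. The median was 5 shared peaks over the 50 and over the 10 genes, beside 2 over all genes. The most were at the F-box gene Fbxo31 with 30, the TGF-beta effector Smad3 with 22, the glucocorticoid-induced chaperone Fkbp5 with 19, the autophagy kinase Ulk1 with 17 and the deubiquitinase Usp19 with 16. Foxo3 had 19 by the same count.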

How the data were processed

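The genes and lists were chosen with earlier results of these data known. Peaks were called on each library alone from its filtered alignments, per the deposited README files. Aligner and caller: not given in the sources used here. The deposited peak lists give a signal per peak, of unstated scale, used only to rank peaks within a list. The authors' footprints carry a p-value column that is 0.01 in every row, and the deposited cut-rate segments carry a p-value column read as a false discovery rate. Of each library's 2 peak lists the longer was used. Depth is unknown.

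Shared peaks are peaks of both libraries overlapping by at least 1 bp, merged where they overlap or adjoin. The midpoint is the mean of the midpoints of the strongest peak in each library. Starts and genes are from GENCODE M21 on GRCm38, and no row lay past a chromosome end. Promoter means within 1 kb of a start. Any overlapping base counts when genes with a peak or footprint are counted. Shared peaks are classed by their midpoint. Motif letters were searched in 150 bases around each midpoint. A match counts as lying in a footprint if they overlap by at least 1 bp. The genes named are all 10 members, their strongest promoter and distal peaks, the 5 pathway genes with most shared peaks, pathway genes lacking a promoter peak in both libraries, and owners of promoters in the windows. Other peaks were named after their values were seen.

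Values were computed in Python 3.11.15 (scipy 1.17.1, pandas 2.3.3, numpy 2.4.6, pysam 0.24.0), figures were drawn with matplotlib 3.10.9, and the merging was checked with bedtools 2.31.1. Merging was tested on simulated data and recovered all 12070 planted shared peaks of 20000. The simulated peaks were spaced apart, so nested or adjoining peaks were not part of that test. With 1 group there is no contrast and no test. Intervals are exact Clopper-Pearson at 95%. Alternatives were other overlaps, peak lists, promoter distances, start sets, flanks, motif windows and cut-rate thresholds, and each library alone.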

Additional observations from a re-analysis of the deposited data

How the results depend on the processing

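All 10 genes kept a promoter peak in both libraries under every alternative of this count that used both, and had one in each library alone. The pathway count stayed at 49 of 50 where both libraries were used. It was 49 in replicate 1 alone and 50 in replicate 2 alone. The shorter peak list of each library lowered the distal shared peaks from 37 to 20. Per gene, these lists lowered the shared peaks of Foxo3 from 19 to 9, Trim63 from 5 to 2, Fbxo30 from 5 to 3, and Foxo4 and Trim54 from 2 to 1 each. Trim55 went the other way, from 2 to 3. Using the gene body only gave 34 shared peaks in place of 60, whereas flanks of 50 kb gave 98, of which 59 were distal. With 1 library at a time the count is of peaks rather than shared peaks, and it ranged from 81 without replicate 2 to 350 without replicate 1, or 46 to 299 for distal peaks, so it depends on the library. Distal peaks with a CAGCTG match numbered 12, and 19 in a window of 300 bp, 13 without replicate 2 and 42 without replicate 1. Those with a glucocorticoid receptor match numbered 2, and 1 without replicate 2, while FOXO matches stayed at 2 or 3. MEF3 matches, 0 among shared peaks, numbered 4 without replicate 1. The median of promoter bases with a low cut-rate false discovery rate, 1126 as the mean of both libraries, was 917.5 at a rate of 0.01 and 859.2 within 500 bp, as fewer bases can pass. No paired analysis was possible because the libraries form 1 group. Unknown depth limits what the absence of a peak, above all in replicate 1, can show.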
